A study of Saccharomyces cerevisiae with 8 samples.

Results

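A9 and A14 are strains of budding yeast (Saccharomyces cerevisiae) whose genes on chromosome XVI gave raised transcript levels. They were picked from 8 arrays by the level of that chromosome on these same arrays. The median log2 ratio of its genes over the common wild-type RNA, WT2, was 0.55 in A9 and 0.75 in A14. On the other 6 arrays it lay between -0.15 in A10 and 0.0061 in WT1, so the threshold of 0.3 fell in an empty gap. The values of chromosome XVI are therefore a description and are given with no test. The array carried 493 genes of chromosome XVI among 6256, and 483 of the 493 passed the filter on dim signals. The 10 that did not pass gave no value here.

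Aneuploid cells carry an abnormal number of copies of some chromosomes. In yeast, the transcripts of most genes on an extra chromosome follow the number of gene copies, while single genes can depart from it through their own regulation. Chromosome XVI also carries genes for regulators whose targets lie elsewhere in the genome, among them HAA1, whose product is a copper-fist transcription factor that activates membrane transporters and cell wall proteins when cells meet weak acids.

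Each array held total RNA of 1 sample labelled with Cy5 against WT2 labelled with Cy3, from cultures in mid-log phase. A9 and A14 were set against the strains A2, A3, A10, A13 and A15 and against WT1, a second wild-type RNA. The labels name the strains and give neither karyotype, parent strain, ploidy nor further genotype, and each strain was on 1 array, so no value of a single strain has a replicate. Separate cultures are not stated either. The p-values here thus speak of the spread among these 8 samples, and that spread may be technical in part.

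Red signals had medians of 539 to 1532, with backgrounds of 36 to 37. In green the medians were 364 to 614 and the backgrounds 21 to 22.5. The number of arrays limits the precision. Duplicate spots of a gene had a standard deviation of 0.0619 to 0.0799 on the log2 scale. All 8 arrays lay on 1 slide, with A9 beside A2, A3 and A10 in its first row and A14 beside A13, A15 and WT1 in its second. A9 and A14 differed in more than chromosome XVI. A9 also had raised medians on chromosomes II (0.64) and XIII (0.70), and A14 on chromosome IX (0.79). In A9 the 7 a-specific genes, the mating genes of a cells, had a median of -4.29, and the 5 alpha-specific genes outside chromosome XVI a median of 3.69, against 0.08 and -0.12 in A14. The a-specific median was -0.99 in A2 and A3, -4.35 in A10, -0.17 in A13, -1.77 in A15 and 0.07 in WT1. Values of single genes outside chromosome XVI are given after subtracting the median of the gene's own chromosome on that array, here called chromosome-centred.

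Chromosome XVI was raised as a whole in A9 and A14. Its middle 50% of genes lay between 0.31 and 0.80 in A9 and between 0.53 and 0.96 in A14, as log2 ratios over WT2. In A9, 94.4% of its genes were above 0, and in A14 97.5%. On the other 6 arrays this share was 32.9% to 52.0%. Of 482 genes with a value on both arrays, 451 were above 0 on both, which held for 30.3% of the 5625 genes measured on other chromosomes. For 371 of the 483 genes the values of A9 and A14 were both higher than on all 6 other arrays, or 411 without A10, against 3.06% of genes on other chromosomes. Since the same values chose the 2 strains, these counts describe the choice.

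**Figure D1:**
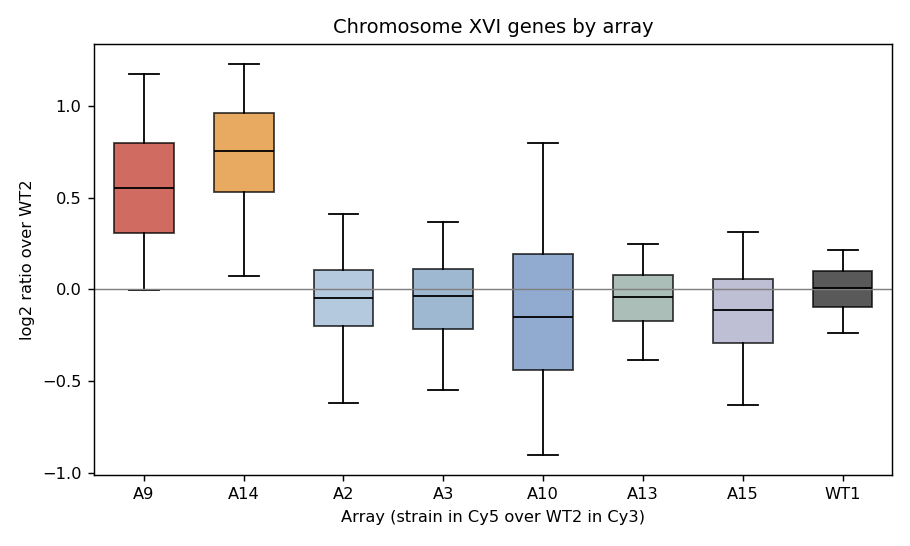
Log2 ratios over WT2 of the chromosome XVI genes that passed the filter, by array. Boxes span the middle 50% of genes with the median as a line, and whiskers run from the 5th to the 95th percentile. The medians of A9 (0.55) and A14 (0.75) stand above those of the other arrays, the highest of which is 0.0061 in WT1.

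Relative to the genes of the chromosomes with medians below 0.3 on the same array (the array's baseline), the chromosome XVI median was 1.58-fold in A9 and 1.70-fold in A14, against 0.971-fold to 1.01-fold on the other 6. The RNA came from whole cultures, so a gain in some of the cells and a smaller response in every cell cannot be told apart. The processing also changed the size of these folds, as given below. The other raised chromosomes of these strains stood at similar heights, with 1.68-fold for II and 1.74-fold for XIII in A9 and 1.75-fold for IX in A14. In A14 the order of XVI and IX turned with Agilent's processed signals, where the medians were 0.88 for XVI and 0.86 for IX. With those signals the chromosome XVI median was 0.70 in A9 and 0.88 in A14, over baselines of -0.15 and -0.06. In the values used here it was 0.55 in A9 and 0.75 in A14, over baselines of -0.11 and -0.01. The folds given here are thus smaller than those from the processed signals. The distance from the baseline depended on how bright the genes were. Among 3 equal classes of mean signal with 161 genes each, the dimmest stood at 1.41-fold in A9 and 1.42-fold in A14, and the brightest at 1.69-fold in A9 and 1.85-fold in A14.

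The raised level ran along the whole chromosome. The left arm had a median log2 ratio of 0.54 in A9 and 0.75 in A14 (280 genes), and the right arm 0.55 in A9 and 0.76 in A14 (203 genes, of which 202 had a value in A14). In 24 consecutive windows of 20 genes or more in the order of their ORF numbers, the median over the baseline lay between 0.46 and 0.84 in A9 and between 0.48 and 0.89 in A14. On the other 5 strains' arrays the windows lay between -0.23 and 0.33, both ends in A10, and in WT1 between -0.06 and 0.05. No window of A9 or A14 came near the baseline. The lowest window of A9 ran from SEN54 to YPL062W, and the lowest of A14 from HRR25 to YPL185W.

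**Figure D2:**
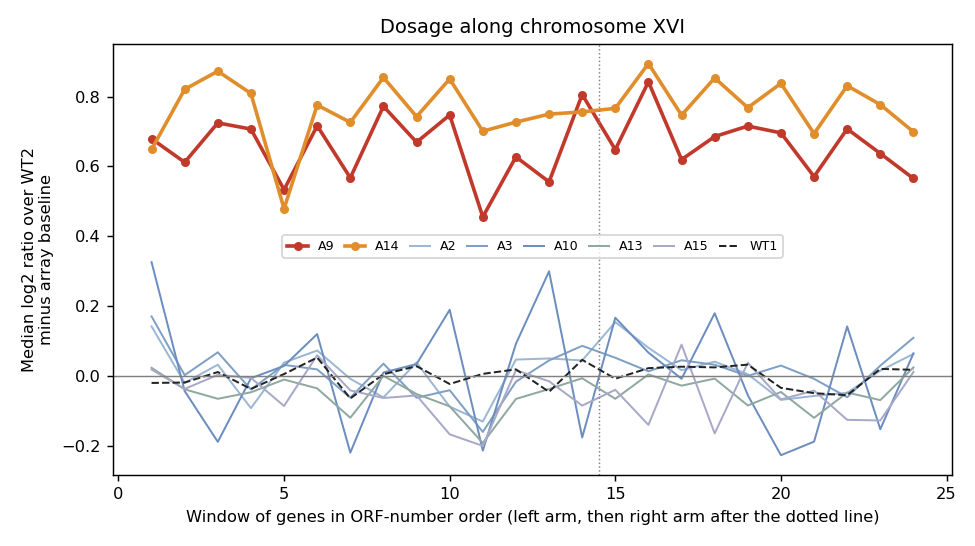
Median log2 ratio over WT2 minus the array's baseline in 24 windows of genes along chromosome XVI, with 1 line per array. The lines of A9 and A14 stay between 0.46 and 0.89 from end to end, while the other strains reach 0.33 at most (A10) and WT1 stays between -0.06 and 0.05.

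Around the chromosome median the genes spread in both strains. After subtracting the chromosome XVI median of each array, 231 of 482 genes lay within 0.3 of 0 in both A9 and A14. This was a smaller share than the 60.9% of genes on other chromosomes, most of them not raised, around their own medians. The other raised chromosomes were about as wide as XVI. In A9 the range between the lower and upper quartiles was 0.49 for XVI, 0.51 for II and 0.47 for XIII. Over the chromosomes of A9 with medians below 0.3 it was 0.38. In A14 this range was 0.43 for XVI and 0.41 for IX, against 0.28 over the chromosomes with medians below 0.3. The median size of the difference between the centred values of A9 and A14 was 0.16. A9 and A14 share the WT2 reference, so part of any likeness between them is built in.

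**Figure D3:**
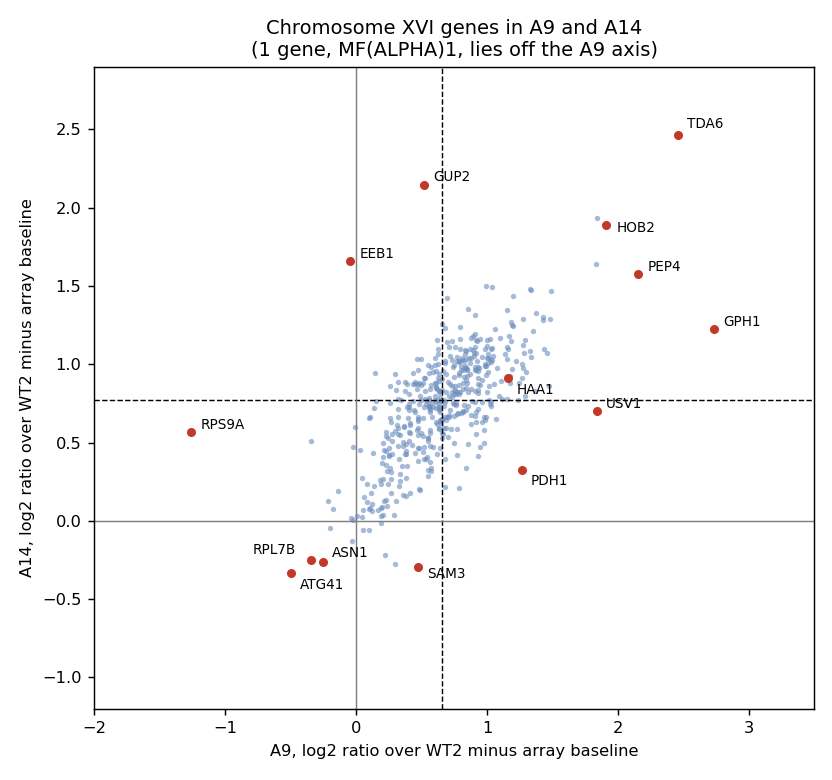
Each point is a chromosome XVI gene, with its log2 ratio over WT2 minus the array's baseline in A9 (horizontal) and A14 (vertical). Dashed lines mark the chromosome medians (0.66 in A9, 0.77 in A14). Named genes lie far from the cloud, apart from HAA1, which is marked for its place in the text.

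A gene stood far above the chromosome when it exceeded the chromosome median by at least 1 (log2), and 3 genes did so in both strains. On other chromosomes 0.409% of genes did so relative to their own medians. TDA6 and HOB2 were among the 3 on chromosome XVI. TDA6, a gene of unknown function, had log2 ratios of 2.35 in A9 and 2.45 in A14, against 0.11 in A2, 0.26 in A3, -0.34 in A10, -0.14 in A13, -0.18 in A15 and -0.14 in WT1. It was well apart from every other array. HOB2, a large lipid-transfer protein, had 1.80 in A9 and 1.87 in A14, against -0.05 in A2, 0.05 in A3, -1.02 in A10, -0.12 in A13, -0.43 in A15 and 0.08 in WT1. Its values in both strains were far above all others.

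Genes next in the order stood less far above the chromosome. KRE6, which acts in making the beta-glucan of the cell wall, had log2 ratios of 1.73 in A9 and 1.63 in A14, but also 0.71, 0.80, 0.78 and 0.57 in A2, A3, A10 and A13, with -0.21 in A15 and 0.17 in WT1. Once centred on the chromosome, its value in A14 (0.87) lay below that of A10 (0.93). PEP4, the vacuolar proteinase A, had 2.05 in A9 and 1.56 in A14, against 1.14 in A10 and between -0.14 and 0.27 on the remaining arrays. PEP4 centred on the chromosome was 1.5 in A9 and 0.81 in A14, and A10 (1.29) lay between them. AGC1, the mitochondrial carrier of aspartate and glutamate, had 1.38 in A9 and 1.45 in A14, against at most 0.30 elsewhere. ERV2, a sulfhydryl oxidase of the endoplasmic reticulum, had 1.23 in A9 and 1.46 in A14, against at most 0.24 elsewhere. NCE102, a membrane protein of eisosomes, had 1.22 in A9 and 1.47 in A14, against a range of -0.90 to 0.49. CUB1, with 1.27 in A9 and 1.31 in A14, and the dihydroceramidase gene YDC1, with 1.09 in A9 and 1.42 in A14, were also among the 10 highest.

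**Figure D4:**
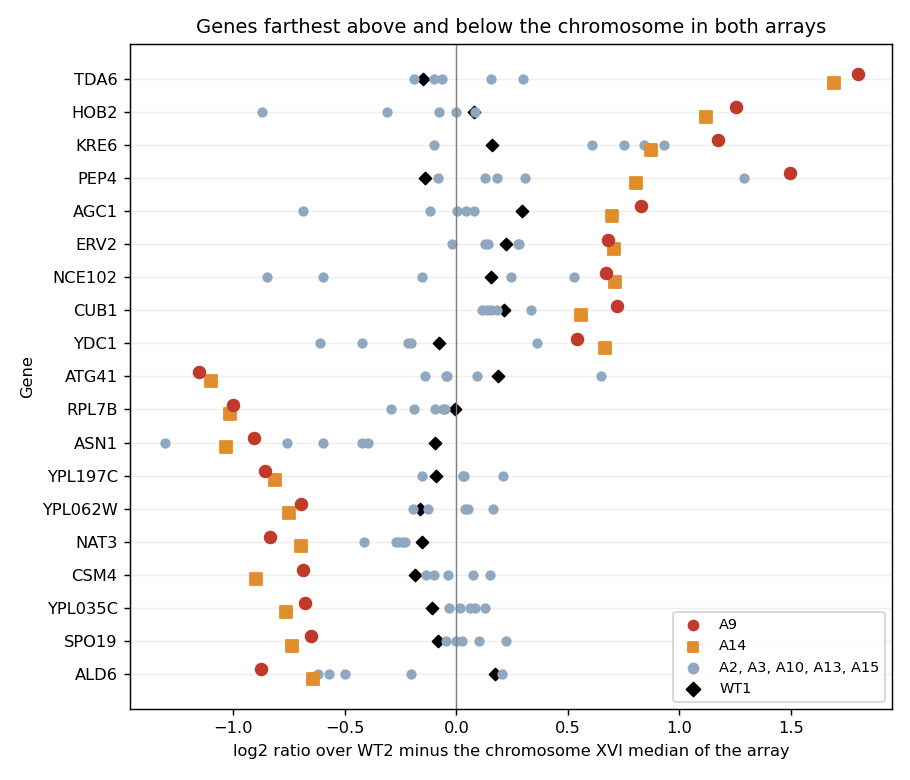
Log2 ratios minus the chromosome XVI median of each array for genes among the 10 farthest above and for the 10 farthest below the chromosome in both A9 and A14. Red circles (A9) and orange squares (A14) lie apart from the blue circles (A2, A3, A10, A13, A15) and black diamonds (WT1) for most genes. The exceptions are KRE6, PEP4 and ASN1, where another strain overlaps them.

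A further group of genes gave ratios near the wild-type level. In both strains 26 of the 483 genes (5.38%) were less than 0.2 above the baseline (log2), which held for 57.7% of genes on other chromosomes. With Agilent's processed signals or the deposited table the count was 13. In A9 alone the count was 44, or 9.11%, and in A14 alone it was 41, or 8.51%. The other raised chromosomes left similar shares below 0.2, with 10.4% for II and 9.0% for XIII in A9 and 6.45% for IX in A14. Of the 26, 21 fell in the dimmest class of signal, 2 in the middle one and 3 in the brightest. For 16 of the 26 the annotation gives no gene symbol, against 74 of all 483. Of the 26, 20 were well above background in red in both A9 and A14. For the other 6 a ratio near 0 says little about the transcript. Most of the 20 were dim as well, and dim genes of the chromosome read lower as a class. The dimmest class stood at 1.41-fold over the baseline in A9 and 1.42-fold in A14. The brightest stood at 1.69-fold in A9 and 1.85-fold in A14. A low ratio of a dim gene therefore need not mean a transcript at the wild-type level. How far dimness or the offset of the normalization lowered these ratios was not tested.

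The named genes among the 26 had varied roles. ATG41, which acts in forming autophagosomes, was the only gene of the chromosome that was lower in A9 and A14 than on every other array, with log2 ratios of -0.60 in A9 and -0.35 in A14, against -0.09 in A2, 0.05 in A3, -0.29 in A10, -0.09 in A13, 0.53 in A15 and 0.19 in WT1. Before centring, A14 lay only just below A10 for ATG41. Relative to the chromosome ATG41 stood at -1.15 in A9 and -1.10 in A14, against -0.14 to 0.65 on the other arrays. RPL7B, a protein of the large ribosomal subunit, was the other gene at least 1 below the chromosome in both strains (0.249% of genes on other chromosomes were that far below their own medians). RPL7B had -0.45 in A9 and -0.26 in A14, against -0.10 in A2, -0.33 in A3, -0.24 in A10, -0.23 in A13, -0.17 in A15 and -0.00 in WT1. The ranges overlapped before centring. RPL7B has a near-identical copy, RPL7A, on another chromosome, and cross-hybridisation between them was not tested. RPL7B was in the dimmest class of signal, at the 17.7th percentile of mean signal. The other ribosomal protein genes of the chromosome were in the brightest class. The limit given above for dim genes thus applies to RPL7B. YPL197C, next to RPL7B by its ORF name, had -0.30 in A9 and -0.06 in A14.

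ASN1, an asparagine synthetase and the brightest of the low genes but for ALD6, had log2 ratios of -0.36 in A9 and -0.28 in A14. It was lower still in A2 (-0.64), A3 (-0.80), A10 (-1.46), A13 (-0.44) and A15 (-0.54), and -0.09 in WT1. So the gene was below WT2 in all 7 strains, and A9 and A14 were the highest of them. ALD6, the cytosolic aldehyde dehydrogenase that makes acetate, showed the like in A9 (-0.32) but not in A14 (0.11), against -0.55 in A2, -0.61 in A3, -0.77 in A10, 0.16 in A13, -0.32 in A15 and 0.18 in WT1. VTC3, a subunit of the vacuolar polyphosphate polymerase, had 0.09 in A9 and -0.03 in A14, within a range of -0.84 in A15 to 0.23 in A13. NAB3, an RNA-binding protein that ends transcription of short non-coding RNAs, had 0.01 in A9 and 0.17 in A14, within a range of -0.16 to 0.36. NAT3, the catalytic subunit of an N-terminal acetyltransferase, had -0.28 in A9 and 0.06 in A14, and all 6 other arrays were below 0. The remaining symbols were FDH2 and the meiosis genes CSM4 and SPO19, all dim. CSM4 was well above background in red on 1 of 8 arrays and on neither A9 nor A14.

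The 2 strains differed by at least 1 in their centred values for 7 genes. On other chromosomes 0.693% of genes were that much higher in A9 and 0.747% that much higher in A14. Higher in A9 were MF(ALPHA)1, GPH1, USV1 and PDH1. MF(ALPHA)1, which encodes the alpha-factor pheromone, had a log2 ratio of 7.15 in A9, where both channels were well above background. Its WT2 signal was not well above background on A14, so no ratio is given there. GPH1, the glycogen phosphorylase, had 2.63 in A9 and 1.21 in A14, against -0.90 in A2, -0.90 in A3, 3.16 in A10, 1.31 in A13, -1.08 in A15 and 0.17 in WT1. A10 and A13 thus reached the level of A9 or A14 with no raised chromosome XVI. USV1, a stress-related zinc-finger protein, had 1.73 in A9 and 0.68 in A14, and 1.54 in A10. PDH1, an enzyme of propionate breakdown, had 1.16 in A9 and 0.31 in A14. Its values were 0.74 in A2, 0.92 in A3, 0.31 in A10, 0.73 in A13, 0.87 in A15 and 0.07 in WT1. Once centred on the chromosome, PDH1 in A9 (0.61) lay below A2, A3, A13 and A15. In A14 (-0.45) it lay below all other arrays.

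Higher in A14 were RPS9A, EEB1 and GUP2. RPS9A, a protein of the small ribosomal subunit with a near-identical copy elsewhere, had log2 ratios of -1.36 in A9 and 0.55 in A14, against -2.44 in A2, -2.58 in A3, -0.74 in A10, -1.28 in A13, -1.38 in A15 and 0.04 in WT1. It was below WT2 in every strain except A14. EEB1, an acyltransferase that makes ethyl esters, had -0.15 in A9 and 1.64 in A14, against -1.12 in A2, -1.14 in A3, 0.16 in A10, -0.74 in A13, -0.26 in A15 and 0.01 in WT1. GUP2, a membrane-bound acyltransferase-like protein, had 0.41 in A9 and 2.13 in A14, against a range of -0.88 in A10 to 0.64 in A2. Below that difference of 1, the exporter of weak acids PDR12 had 0.59 in A9 and 1.41 in A14, and the permease of S-adenosylmethionine SAM3 had 0.37 in A9 and -0.31 in A14.

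By role, the groups of chromosome XVI genes lay near the chromosome as a whole, whose median over the baseline was 0.66 in A9 and 0.77 in A14. The ribosomal protein genes were lowest in A9, with a median of 0.36 in A9 and 0.63 in A14 over 11 genes. They also lay below the chromosome XVI median on the other arrays. Relative to it, their median was -0.10 in A2, -0.25 in A3, -0.42 in A10, -0.16 in A13, and -0.01 in A15 and WT1. RPL43A was the highest of the 11 genes, at 0.95 in A9 and 1.16 in A14 over the baseline. RPL33A stood at 0.31 in A9 and 0.84 in A14. RPS23B and RPL5 had saturated spots on both arrays and RPL1A on A14, so their ratios there are not exact. The 24 genes of ribosome biogenesis and tRNAs had 0.81 in A9 and 0.85 in A14. Among these, TIF6, a factor that keeps ribosomal subunits apart, had log2 ratios over WT2 of 1.09 in A9 and 1.23 in A14, and the pseudouridine synthase PUS1 had 1.17 in A9 and 1.27 in A14.

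The 14 gene regulators had medians over the baseline of 0.60 in A9 and 0.82 in A14. HAA1 was the highest of them in A9, with log2 ratios over WT2 of 1.05 in A9 and 0.90 in A14, against 0.18 in A2, 0.07 in A3, 0.28 in A10, 0.03 in A13, -0.33 in A15 and 0.11 in WT1. Its values in A9 and A14 were above all others, which held for 12 of the 14 regulators and for 371 of the 483 genes of the chromosome. Once centred on the chromosome, HAA1 was 0.50 in A9 and 0.15 in A14, against -0.21 to 0.43 on the other arrays. Its centred value in A14 thus lay within their range. GCR1, the activator of glycolytic genes, had 0.37 in A9 and 0.62 in A14, RLM1, of the cell integrity pathway, 0.55 in A9 and 0.52 in A14, and GAL4, the activator of galactose genes, 0.46 in A9 and 0.32 in A14. GAL4 reached 0.56 in A10, so its ranges overlapped. CUP9, a repressor of the peptide transporter PTR2, had 0.24 in A9 and 0.33 in A14. The 12 genes of the transcription machinery had 0.72 in A9 and 0.84 in A14, and the general factor SUA7 (TFIIB) was among their highest, at 0.88 in A9 and 1.09 in A14 over WT2. RPA135, the second-largest subunit of RNA polymerase I, had 0.75 in A9 and no value in A14.

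The 17 cell cycle and replication genes had medians over the baseline of 0.57 in A9 and 0.63 in A14. The G1 cyclin CLN2 was the lowest of these in A9, at 0.10 in A9 and 0.48 in A14 over WT2, while the mitotic cyclin CLB2 had 0.93 in A9 and 1.0 in A14. The 30 respiration and mitochondrial genes had 0.89 in A9 and 0.78 in A14, the only group besides that of protein folding whose median was higher in A9. The inner membrane protease YME1 was the highest in A9, at 1.33 in A9 and 1.08 in A14 over WT2, and QCR2, of the cytochrome bc1 complex, had 1.07 in A9 and 0.91 in A14, but 1.69 in A10. The 37 metabolic enzymes and transporters had medians of 0.52 in A9 and 0.77 in A14 and the widest range of these groups in both strains. ASN1 was the lowest and GPH1 the highest in A9, and SAM3 the lowest and GUP2 the highest in A14. The 18 genes of protein folding and degradation had 0.84 in A9 and 0.75 in A14, with the chaperone HSP82 at 0.16 in A9 and 0.62 in A14 over WT2. The 24 secretory and vacuolar genes had 0.67 in A9 and 0.96 in A14. No group was tested against the chromosome.

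Outside chromosome XVI, few genes separated A9 and A14 from the other arrays. In limma's moderated fit of the chromosome-centred values, 5 of 5625 genes (0.0889%) passed the threshold of 0.05 on the adjusted p as higher and 2 (0.0356%) as lower. Before adjustment, 298 (5.30%) were under 0.05. The higher genes were YRO2, NRE1, PHM8, STP4 and MRH1, and the lower genes ATO3 and PRM5. In both A9 and A14 each of the 7 lay outside the range of all 6 other arrays. The calls rest on 2 strains that also differ in mating-type genes and in other raised chromosomes. With the slide row as a block there were 2 higher and 0 lower calls, and within either row, where 1 array stood against 3, there were 0. Leaving out genes of all raised chromosomes removes YRO2, NRE1 and PRM5 by construction and tests fewer genes. PHM8, STP4, MRH1 and ATO3 then kept their differences, with adjusted p of 0.0715 for PHM8 and ATO3 and 0.0951 for STP4 and MRH1. Without A10 there were 36 higher and 10 lower calls, without A14 10 and 4, and without A2, A3, A9, A15 or WT1 2 and 0.

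YRO2, a membrane protein related to the heat shock protein Hsp30, gave the largest difference among the calls. Its chromosome-centred log2 ratio was 3.93 in A9 and 3.52 in A14, against -0.27 in A2, 0.21 in A3, -0.62 in A10, 0.18 in A13, -0.76 in A15 and -0.05 in WT1. The difference was 3.95 ± 0.28 (SE), with an adjusted p of 0.000935. NRE1 had 1.75 in A9 and 2.24 in A14, against 0.06 in A2, 0.12 in A3, -0.23 in A10, -0.43 in A13, -0.49 in A15 and -0.27 in WT1, a difference of 2.20 ± 0.20 (SE) with an adjusted p of 0.00334. These were the 2 genes still called with the row as a block. YRO2 lies on chromosome II, raised in A9, and NRE1 on chromosome IX, raised in A14, and each was high in both strains. Within its slide row, YRO2 was 4.15 above its row mates in A9 and 3.74 above them in A14, and NRE1 1.77 in A9 and 2.63 in A14.

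The other calls came closer to the threshold. PHM8, a phosphatase of lysophosphatidic acid and nucleotides, had centred log2 ratios of 1.87 in A9 and 1.16 in A14, against -0.42 in A2, -0.20 in A3, 0.01 in A10, 0.17 in A13, -0.35 in A15 and -0.02 in WT1 (difference 1.65 ± 0.22 SE, adjusted p 0.0317). STP4, a zinc-finger protein, had 1.98 in A9 and 1.86 in A14, against 0.14 in A2, -0.01 in A3, 0.88 in A10, -0.08 in A13, -0.26 in A15 and -0.09 in WT1 (difference 1.82 ± 0.26 SE, adjusted p 0.0417). MRH1, the close relative of YRO2, had 1.87 in A9, where its spots were saturated, and 1.5 in A14, against -0.77 in A2, -0.29 in A3, -1.19 in A10, 0.12 in A13, -0.90 in A15 and -0.13 in WT1 (difference 2.21 ± 0.33 SE, adjusted p 0.0417). A10 stood nearest to A9 and A14 for STP4 and farthest from them for MRH1. ATO3, an ammonium exporter of the plasma membrane, had -1.29 in A9 and -1.39 in A14, against -0.37 in A2, -0.08 in A3, -0.45 in A10, 0.04 in A13, -0.18 in A15 and -0.24 in WT1 (difference -1.13 ± 0.15 SE, adjusted p 0.0317). PRM5, a membrane protein induced by pheromone and cell integrity signalling, had -1.66 in A9 and -0.83 in A14, against -0.05 to 0.19 on the other arrays (difference -1.34 ± 0.19 SE, adjusted p 0.0417). PRM5 lies on the raised chromosome IX of A14, and without centring by chromosome it was not called (adjusted p 0.292).

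**Figure D5:**
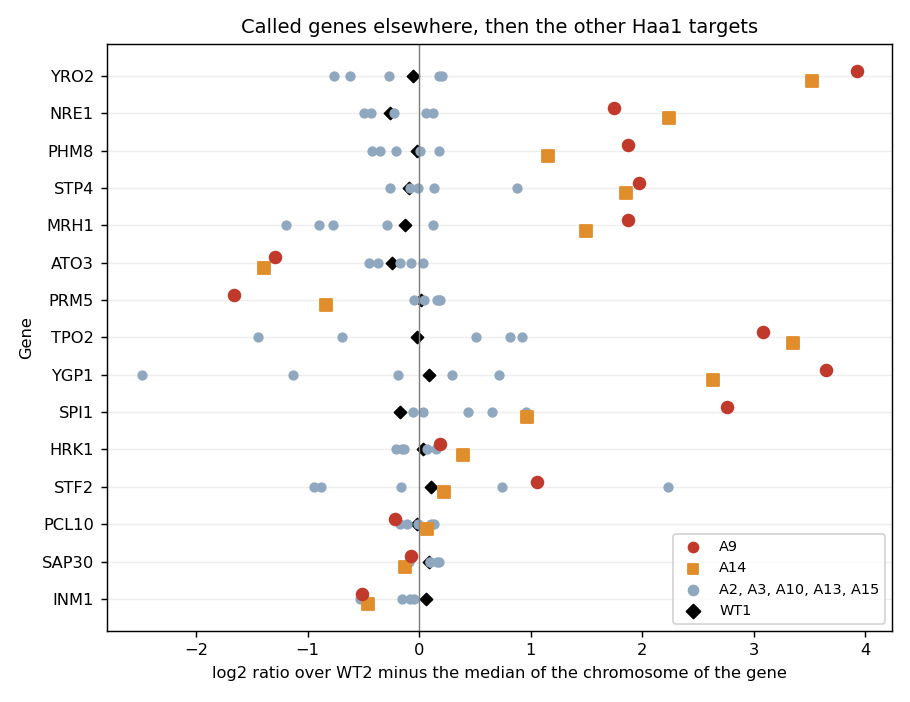
Chromosome-centred log2 ratios over WT2 of the 7 genes called outside chromosome XVI and, below them, of the Haa1 targets that were not called. Red circles (A9) and orange squares (A14) stand clear of the other 6 arrays for the calls and for TPO2 and YGP1, whereas STF2, PCL10, SAP30 and INM1 overlap them.

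Targets of the regulator Haa1 held 2 of the 5 higher calls, YRO2 and PHM8. The list was drawn up with earlier results of these arrays known, and is not independent evidence. Of its 10 genes outside chromosome XVI, 6 were higher in A9 and A14 than on all other arrays, against 4.07% of all 5625 genes, and 0 were lower, against 4.39%. Its median difference was 1.01, against -0.01 over all genes, and 7 of the 10 differences were above 0, against 48.6% of all genes. The median centred value of the list was 1.47 in A9 and 0.68 in A14, and between -0.19 and 0.13 on the other 6 arrays.

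TPO2, a polyamine exporter of the plasma membrane, had centred log2 ratios of 3.09 in A9 and 3.35 in A14, against 0.51 in A2, 0.81 in A3, 0.92 in A10, -0.69 in A13, -1.45 in A15 and -0.02 in WT1. Its adjusted p was 0.0896, with a difference of 3.21 ± 0.58 (SE). YGP1, a secreted glycoprotein, had 3.65 in A9 and 2.64 in A14, against -1.13 in A2, -0.19 in A3, 0.29 in A10, 0.72 in A13, -2.48 in A15 and 0.09 in WT1 (adjusted p 0.117). The spread of the other strains, widest in A15, set these genes apart from the calls. SPI1, a cell wall protein, had 2.76 in A9 but 0.97 in A14, level with A10 at 0.96 (adjusted p 0.33). HRK1, a kinase that activates the proton pump, differed by 0.33 (adjusted p 0.70). The list also holds GRE1, a hydrophilin gene on chromosome XVI, which had uncentred log2 ratios of 1.18 in A9 and 0.78 in A14, with 0.79 in A10. STF2 had 1.06 in A9 and 0.23 in A14, below the 2.23 of A10, and PCL10, SAP30 and INM1 had differences between -0.33 and -0.06.

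Without regard to the test, 23 genes outside chromosome XVI were at least 2-fold higher in both strains (0.409%) and 14 at least 2-fold lower (0.249%), on the chromosome-centred scale. With Agilent's processed signals or the deposited table these counts were 97 and 44. Outside the range of the other 6 arrays lay 12 of the higher and 11 of the lower genes. A10 also showed the change at 2-fold for 12 of the higher and 3 of the lower genes. Without A10, 19 higher and 14 lower genes lay outside the range of the other 5. HXT4, a hexose transporter, had 2.31 in A9 and 2.43 in A14, against -1.90 in A2, -1.54 in A3, 0.08 in A10, -0.32 in A13, -2.11 in A15 and -0.06 in WT1 (adjusted p 0.09). The gap between A9 and A14 and the rest was widest against A2, A3 and A15. The cell surface genes HPF1, PRY1 and CSS1, the glycerol phosphatase GPP2 and the subtelomeric gene COS12 were shared at 2-fold but overlapped other arrays. HPF1 had 1.82 in A9 and 1.86 in A14, yet 3.93 in A10 and 2.63 in A15, and CSS1 had 2.30 in A9 and 1.28 in A14, yet 5.12 in A10.

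Just short of the threshold of the test were YAL037W, with 0.51 in A9 and 0.89 in A14 (adjusted p 0.0505), the cyclic AMP phosphodiesterase PDE1, with 0.74 in A9 and 0.59 in A14 (adjusted p 0.0692), and the cell wall protein SCW4, with 0.74 in A9 and 0.68 in A14 (adjusted p 0.0915). Each was higher on both arrays than on all others. On the lower side came SAD1, a splicing factor, with -0.89 in A9 and -0.67 in A14 (adjusted p 0.0922). Other lower genes were farther from the threshold. MMP1, a permease of S-methylmethionine, had -0.48 in A9 and -1.36 in A14 (adjusted p 0.109). AAP1, an aminopeptidase, had -0.42 in A9 and -0.68 in A14 (adjusted p 0.213).

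Of the amino acid biosynthesis genes, most had lower values in A9 and A14, though 0 passed limma's adjusted threshold and 13 were lower at an unadjusted p under 0.05 (2.70% over all genes). Of the 51 measured outside chromosome XVI, 47 had a difference below 0 (51.4% over all genes), 14 were lower in A9 and A14 than on all other arrays (4.39% over all genes), and 3 were at least 2-fold lower in both. Their median difference was -0.28, against -0.01 over all genes, with medians of -0.34 in A9 and -0.24 in A14. HIS4, of histidine synthesis, had centred log2 ratios of -2.11 in A9 and -1.13 in A14, against -0.21 in A2, -0.20 in A3, -0.33 in A10, -0.48 in A13, 0.35 in A15 and 0.35 in WT1 (adjusted p 0.107). The aspartate kinase HOM3, the first step towards threonine and methionine, had -0.91 in A9 and -0.73 in A14, against -0.27 to 0.37 (adjusted p 0.109). For both genes the 2 strains lay below every other array. BAT2, a branched-chain aminotransferase, had -1.39 in A9 and -1.72 in A14, against -0.92 in A2 and -0.74 in A3 as the next lowest (adjusted p 0.165). ARG1, of arginine synthesis, had -2.23 in A9 and -1.49 in A14, against -1.12 in A13 as the next lowest (adjusted p 0.226).

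Further genes were at least 2-fold lower in both strains. PHO84, the high-affinity phosphate transporter, had -2.91 in A9 and -2.90 in A14, but also -2.93 in A10 and -1.01 in A15, against -0.15 in A2, 0.21 in A3, 0.50 in A13 and -0.15 in WT1 (adjusted p 0.495). A2, A3 and A13 thus lay far above A9 and A14, while A10 matched A9 and A14 on this scale. PHO84 lies on chromosome XIII, raised in A9. Its uncentred log2 ratios were -2.21 in A9, -2.90 in A14 and -3.09 in A10. ZRT1, the zinc transporter, had -1.60 in A9 and -1.67 in A14, against -1.32 in A15 as the next lowest. PTR2, the peptide transporter, had -1.15 in A9 and -2.0 in A14, against -1.07 in A2 as the next lowest. ANB1, the hypoxic form of a translation factor, had -2.89 in A9 and -1.62 in A14, against -1.29 in A13 as the next lowest. AAC3, the hypoxic ADP/ATP carrier, had -2.55 in A9 and -1.30 in A14, with A10 at -1.51. The alcohol dehydrogenase ADH5 had -2.07 in A9 and -1.34 in A14. AAC3 and ADH5 lie on chromosome II, raised in A9. Uncentred, AAC3 had -1.91 in A9 and -1.31 in A14, and ADH5 -1.42 in A9 and -1.36 in A14. IZH4, a membrane protein tied to zinc, had -1.23 in A9 and -1.05 in A14, with A10 between them at -1.11. YGR035C had -1.72 in A9 and -1.07 in A14. None of these passed the test.

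The remaining groups held 0 calls besides PHM8, which also belongs to the phosphate-starvation (PHO) genes. At an unadjusted p under 0.05, limma had 6 general stress genes higher, 7 ribosomal protein genes lower and 1 higher, and 0 ribosome biogenesis genes, against 2.60% of all genes higher and 2.70% lower. The 42 general stress genes had a median difference of 0.41, 36 of them above 0, with medians of 1.02 in A9 and 0.36 in A14, but A10 had 1.68 and A13 0.38. The 126 ribosomal protein genes had -0.12, 95 of them below 0, and 10 were lower in A9 and A14 than on all other arrays (4.39% over all genes). The 30 ribosome biogenesis genes had -0.20, 29 of them below 0, with a median of 0.0049 in A9 and -0.14 in A14, against 0.06 in WT1. In these, A2 (0.44) and A3 (0.37) were high and A10 (-0.35) low. Targets of other regulators that chromosome XVI encodes had median differences of 0.04 for 15 Gcr1 targets, 0.16 for 8 Gal4 targets and 0.22 for 14 Rlm1 targets. Of the 17 PHO genes outside the chromosome, 13 had a difference below 0, with a median of -0.11. The 23 heat shock chaperones had 0.02 and the 15 hexose transport genes 0.11. The 13 other acid and metal transport genes had -0.23, 11 of them below 0.

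The median difference of the mating genes was -0.38 for the 7 a-specific genes, 1.67 for the 5 alpha-specific genes outside chromosome XVI and 0.48 for the 10 haploid-specific genes. Only STE3, the receptor for a-factor, was higher in both A9 (4.77) and A14 (0.75) than on all other arrays among the 5 alpha-specific genes, the next highest being A10 at 0.60. The haploid-specific median was -0.60 in A9 and 0.01 in A14, against -0.21 in A2, -0.32 in A3, -2.93 in A10, -0.04 in A13, -0.62 in A15 and 0.11 in WT1. Of the 5 alpha-specific genes, 0 were called and 4 were higher at an unadjusted p under 0.05 in limma, against 2.60% of all genes. Their median was 3.69 in A9 but -0.12 in A14, against -0.18 in A3 to 0.11 in A10 on the other arrays. The difference of 1.67 thus rested mainly on A9. The part of mating type in the differences given above was not tested.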

How the data were processed

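Total RNA of 8 samples was measured on 2-colour arrays of 6256 yeast genes with 2 spots each. The files that the authors deposited hold the scanner's red and green intensity for each spot and a log10 ratio, for which the file headers name version 10.5.1.1 of Agilent's Feature Extraction. The authors' deposited value table holds log2 ratios that match the scanner's ratios to rounding. The dyes were not swapped, so ratios run strain over WT2 throughout, and a dye effect common to all arrays cancels in differences between arrays.

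Starting from the median intensities, limma 3.58.1 (R 4.3.3) applied a normexp correction with an offset of 50 and then loess within each array, with 536 control spots at weight 0 and outlier spots left out. Loess centres each array, which lowers the medians of raised chromosomes and of the rest alike, so the baseline is given too. Spots of a gene were averaged. A gene was kept if 2 or more arrays had it well above background in red or green, which left 6108 of 6233 nuclear genes, and 48 of those outside chromosome XVI lack a value on some array. Chromosome medians were subtracted, and A9 and A14 were compared with the other 6 arrays with lmFit and eBayes, with Benjamini-Hochberg adjustment over all 6108 genes. The fitting script was tested on simulated data. Of 6256 genes, 5756 took symbols from RefSeq's table by ORF name, and 500 kept the file's name.

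The strains, genes and gene lists were chosen with earlier results of these data known. Named genes were the 10 highest and 10 lowest shared deviations on chromosome XVI, up to 8 differences between A9 and A14 each way, up to 4 genes per list, and elsewhere the 10 smallest p-values and 12 largest shared changes in each direction. Of these, the text gives a selection, and some genes are not reported here. GRE1 and RPA135 were added after their values were seen. Alternatives were Agilent's processed signals, the deposited table, other filters and thresholds, no chromosome centring, the slide row as a block, leaving out genes of raised chromosomes, and leaving out each array. Fits within a slide row and counts without A10 were chosen after seeing the data. No sequence or coordinate is printed.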

Additional observations from a re-analysis of the deposited data

How the results depend on the processing

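Each strain had 1 array, and the number of calls outside chromosome XVI differed between settings. Against 5 higher and 2 lower calls, processed signals and the deposited table each gave 2 and 0, no chromosome centring 15 and 7, and the slide row as a block 2 and 0. Without genes of raised chromosomes, which removes YRO2, NRE1 and PRM5 by construction, there were 0 and 0. Within slide row 1 or slide row 2 there were 0 and 0, with 1 array against 3, which says nothing about stability. Leaving out each array in turn gave 2 to 36 higher and 0 to 10 lower calls, the highest without A10. YRO2 and NRE1 were each called in 14 of 16 alternatives, with adjusted p of 0.000522 to 0.206 for YRO2 and 0.00263 to 0.501 for NRE1. PHM8 was called in 6 of 17, MRH1 in 5 of 17, STP4 and ATO3 in 4 of 17 and PRM5 in 4 of 16, and all 7 kept their direction. The counts shared at 2-fold, 23 higher and 14 lower, were 97 and 44 with processed signals or the deposited table, and 95 and 47 at 1.5-fold. The chromosome XVI median was 0.70 in A9 and 0.88 in A14 with processed signals and with the deposited table. The 26 genes near the baseline were 13 with either of these and 43 at a threshold of 0.3, and the 3 far above the chromosome were 8 at a threshold of 0.58. Of the named genes outside chromosome XVI, HPF1 (0.45) turned to -0.087 within slide row 1. CSS1 (-0.10) turned to 0.26 without chromosome centring, 0.17 within slide row 2, and its range leaving out each array in turn was -0.61 without A9 to 0.55 without A10 (0.41 without A14). The causes were not tested. No paired analysis was possible because the labels give no replicate numbers and each strain has 1 array.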

Other observations

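Some genes shared at 2-fold were outside the rule for named genes and were picked after their values were seen. DDR48, a stress protein, had chromosome-centred log2 ratios of 1.33 in A9, where its spots were saturated, and 1.01 in A14, against -2.36 to 0.07 on the other arrays. GRE2, a methylglyoxal reductase, had 1.18 in A9 and 1.12 in A14, against -1.08 to 0.53. In both, A9 and A14 lay above every other array. PMA1, the proton pump of the plasma membrane, had 1.23 in A9 and 1.12 in A14, but 1.25 in A10. HSP12, a membrane-protecting stress protein, had 1.73 in A9 and 1.09 in A14, but 4.89 in A10 and 1.18 in A13. On single arrays, A9 had 97 genes at least 2-fold higher and 68 lower outside chromosome XVI, and A14 had 32 higher and 20 lower.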
